A study of Mus musculus with 14 samples.

Results

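In the colon of mice with chemically induced colitis, 10 genes that encode acute-phase proteins were followed: Hp, Lbp, Ptx3, the 3 fibrinogen chain genes Fga, Fgb and Fgg, the serum amyloid A genes Saa1, Saa2 and Saa3, and Orm1. They were measured by 12 of the 41174 probes of an Agilent one-colour array, chosen because the transcript accession of the probe belonged to 1 of the 10 genes, out of 19096 gene symbols on the array. The genes were chosen by the class of their protein, with the measured DSS response of Flox colons in view, in which Hp, Fgb and Ptx3 were among the leading genes, so the values of that contrast are given as a description with no test. By the labels all mice were female C57BL/6 mice, 4 to 6 months old and fed chow, where a legend of the study gives a single age within that range, and all carried floxed alleles of the glucocorticoid receptor gene Nr3c1. Flox mice kept the receptor, and in GR iKO mice Cre under the Villin promoter deleted it in the intestinal epithelium, so that other cells of the colon kept it. Whole colon tissue was taken after 7 days on regular water (4 Flox and 4 GR iKO arrays) or on water with 2.5% dextran sodium sulfate (DSS), which damages the epithelium and causes colitis (3 Flox and 3 GR iKO arrays). The labels number the replicates but do not state that each array is a separate mouse, so the p-values measure the spread between these samples. A level below is the log2 signal of a probe minus the log2 of the 75th percentile of signal on its array, and a change is a difference of such levels. The level of 1 probe cannot be set against that of another, so genes are compared only by their changes.

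Acute-phase proteins are plasma proteins whose synthesis changes with inflammation, mostly in the liver, where interleukin 6 acts through STAT3 and interleukin 1 through NF-kB and C/EBP factors, and glucocorticoids enhance the response. Several of them are also made outside the liver: haptoglobin in neutrophils and other cells, serum amyloid A proteins in the colonic epithelium, and pentraxin 3 in endothelial, stromal and myeloid cells. Fibrinogen is assembled from the Aα, Bβ and γ chains encoded by Fga, Fgb and Fgg, is cleaved by thrombin to fibrin, and is dissolved by plasmin.

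The targeted gene checked the labels. Nr3c1 had a mean level of 0.39 ± 0.16 (SD, n = 4) in GR iKO and 1.19 ± 0.14 (n = 4) in Flox colons on water, 57.3% of Flox (two-sided exact permutation test, p = 0.0286, the smallest that 4 against 4 allows). On DSS the levels were 0.43 ± 0.05 (n = 3) and 1.27 ± 0.20 (n = 3), 56.1% of Flox (two-sided exact permutation p = 0.1, the smallest that 3 against 3 allows), and under scaling to spike-in transcripts the sign of this difference on DSS turned (log2 difference 0.40). The other 3 Nr3c1 probes lay between 47.6% and 75.7% of Flox. The share of probes well above background was 62.6% to 71.3% over the arrays, and the 75th percentile of signal ranged from 262 to 1003 intensity units. Replicate arrays correlated at 0.986 or above on water and 0.970 or above on DSS. The spread on DSS exceeded that on water for 9 of the 10 genes, Orm1 being the exception, and the fit weighted water and DSS arrays separately. Of 29523 probes tested, 47.2% were called with DSS in Flox and 38.9% in GR iKO (limma, adjusted p under 0.05), 46.2% and 49.2% of them higher. That split was 66.2% and 60.1% higher with another background correction (normexp), and 0.761% and 5.3% under spike-in scaling, which moved the median change of all probes to −2.48 in Flox and −0.99 in GR iKO.

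Haptoglobin and lipopolysaccharide-binding protein transcripts were well above background on all 14 arrays and were higher on DSS in both genotypes. Hp encodes the plasma protein that captures free haemoglobin. In Flox colons on water its levels were −1.09, −2.35, −1.79 and −2.02, and on DSS 6.18, 6.96 and 5.99. In GR iKO colons they were −1.18, −1.13, −0.69 and −1.29 on water and 6.34, 5.85 and 5.67 on DSS. Every DSS array lay more than 6 log2 units above every water array, in both genotypes. The change was 8.19 ± 0.39 (SE), a 291-fold difference, in Flox, and 7.02 ± 0.39, or 130.2-fold, in GR iKO, where it was called (limma adjusted p = 8.56e-07). Within the 3 slides that held both treatments, the GR iKO change lay between 6.53 and 7.53.

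Lbp encodes the protein that hands bacterial lipopolysaccharide to CD14 and the TLR4 complex. Its levels on water were tightly grouped, from −2.58 to −2.32 over the 4 Flox arrays and from −2.44 to −2.34 over the 4 GR iKO arrays. On DSS they were 1.3, 1.22 and 1.10 in Flox and 1.12, 2.08 and −0.09 in GR iKO. The Flox arrays on DSS were close together, whereas the GR iKO arrays spanned more than 2 log2 units with replicate 3 the highest and replicate 4 the lowest. The change was 3.61 ± 0.30 (12.2-fold) in Flox and 3.44 ± 0.30 (10.9-fold) in GR iKO, where Lbp rose (limma adjusted p = 1.17e-05).

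Ptx3 encodes pentraxin 3, a long pentraxin that binds microbes, complement and fibroblast growth factor 2. It went from signals at background to clear signals in every DSS array. On water, 1 of 4 Flox arrays and 0 of 4 GR iKO arrays were well above background, with levels from −7.38 to −6.01 and from −6.64 to −6.04. On DSS the levels were 0.84, 0.10 and −0.03 in Flox and 2.78, 0.47 and −0.34 in GR iKO. Replicate 1 of GR iKO stood more than 2 log2 units above the other GR iKO arrays, and the lowest DSS array was still over 5 log2 units above the highest water array. Where no array of a group is well above background its measured level is only an upper limit. The fold is then given as a lower bound, set against the lowest signal called well above background on each of those arrays. Such a bound holds for the main background correction and scaling only. In GR iKO, Ptx3 was at least 112.8-fold higher on DSS (fitted change 7.39 ± 0.60, limma adjusted p = 6.6e-06). In Flox the fitted change was 7.12 ± 0.60. A second Ptx3 probe gave 7.18 ± 0.64 in Flox, where it was on no water array well above background and Ptx3 was at least 75.7-fold higher on DSS, and 7.46 ± 0.64 in GR iKO.

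**Figure D1:**
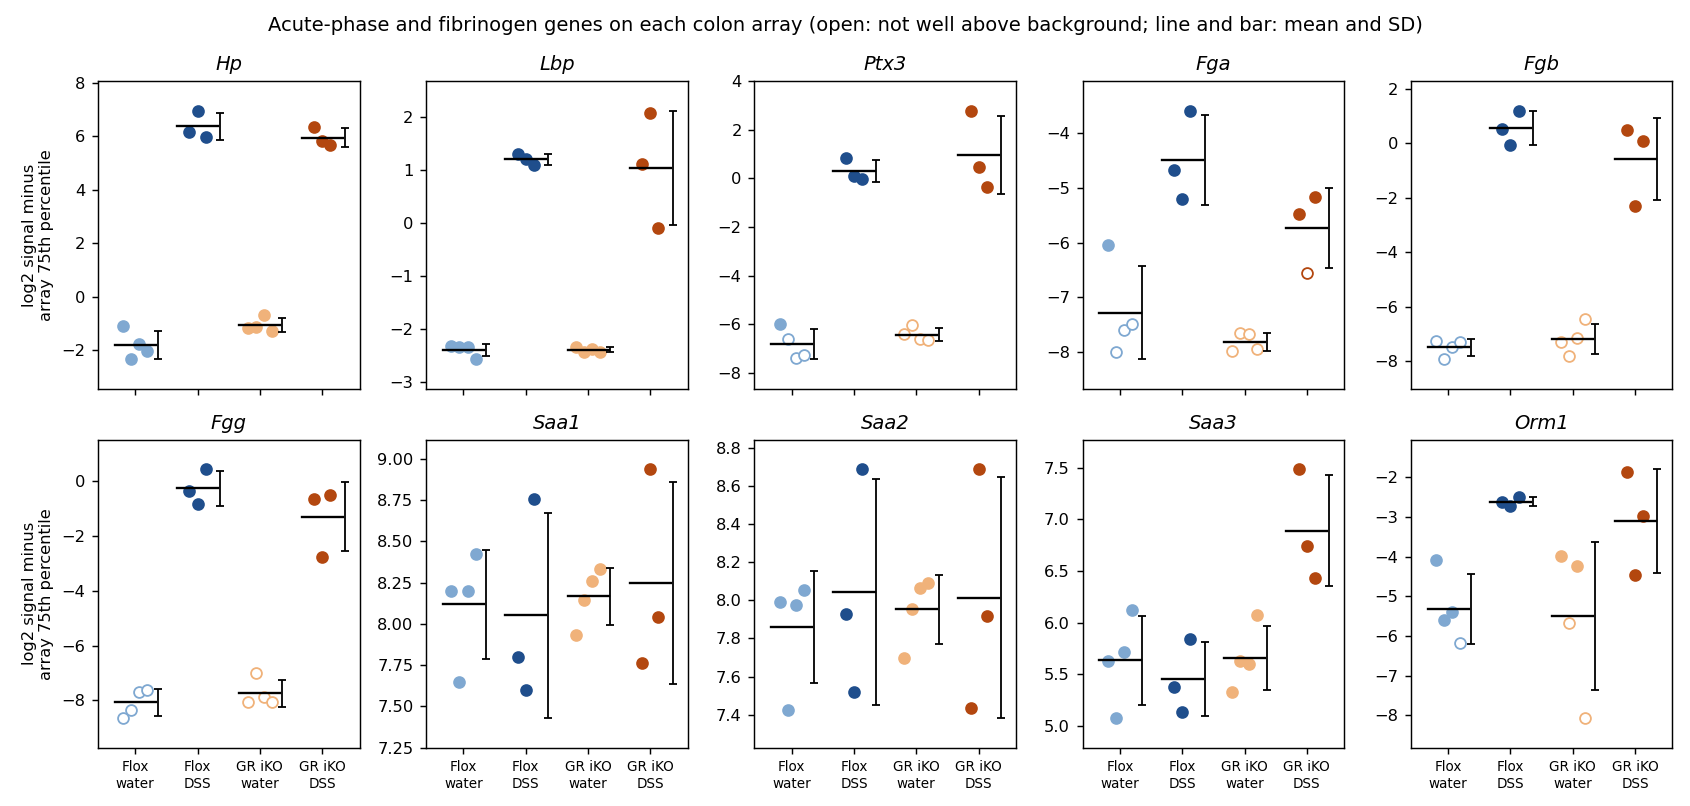
Level of the 10 genes on each of the 14 arrays (log2 signal minus the log2 of the array's 75th percentile, probe with the highest mean signal for each gene; own vertical scale in each panel). Points are arrays, open where the probe was not well above background, lines are group means and bars are SD; Hp, Lbp, Ptx3, Fgb and Fgg separate water from DSS in both genotypes, Saa1 and Saa2 do not, and Saa3 is highest on the 3 GR iKO DSS arrays.

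The fibrinogen chain genes lie next to each other on mouse chromosome 3, in the order Fgg, Fga, Fgb, and their values moved together over the arrays, so the sequence before each start site is shown. The 250 bases upstream of the annotated start are from RefSeq (GRCm38.p6), written 5′ to 3′ on the strand of the gene, with matches to the motifs searched in capitals.
Fga, plus strand, chr3:83025903-83026152: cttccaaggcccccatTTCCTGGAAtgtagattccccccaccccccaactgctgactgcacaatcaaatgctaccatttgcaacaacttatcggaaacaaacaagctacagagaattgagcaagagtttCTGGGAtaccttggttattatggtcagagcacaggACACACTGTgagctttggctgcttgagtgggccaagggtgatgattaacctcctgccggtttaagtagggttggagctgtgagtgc
Fgb, minus strand, chr3:83049864-83050113: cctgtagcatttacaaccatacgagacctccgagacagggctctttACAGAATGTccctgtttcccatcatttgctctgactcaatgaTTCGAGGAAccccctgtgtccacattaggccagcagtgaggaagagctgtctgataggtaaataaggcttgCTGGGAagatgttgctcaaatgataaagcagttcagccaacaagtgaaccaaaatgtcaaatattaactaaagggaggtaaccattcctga
Fgg, plus strand, chr3:83007474-83007723: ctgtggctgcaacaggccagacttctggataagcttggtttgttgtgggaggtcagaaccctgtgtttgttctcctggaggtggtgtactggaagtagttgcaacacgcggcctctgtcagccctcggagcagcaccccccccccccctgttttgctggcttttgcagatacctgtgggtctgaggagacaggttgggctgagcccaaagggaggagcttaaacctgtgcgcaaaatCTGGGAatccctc
The motifs were searched on both strands in windows of 300 bases, 250 before and 50 after the start, for 7 of the 10 genes that had one. The CTGGGA letters of STAT3 type II elements occurred in all 3 fibrinogen windows, beginning at positions −121, −91 and −13 from the start in Fga, Fgb and Fgg, with a second match in Fgb beyond the printed bases, and 31.8% of 32544 distinct promoter windows of the same length held this short motif. The letters TTCNNNGAA (STAT) occurred in Fga and Fgb, against 8.33% of all windows, and ACANNNTGT (glucocorticoid receptor) in Fga and Fgb, against 6.83%. TTNNGNAAT (C/EBP, 11.4% of windows) occurred once in Fgb, at the start site and so not in capitals, and the NF-kB motif (1.61% of windows) in none of the 3. The matched stretches did not overlap each other. A match describes letters, not a bound site.

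Fgb and Fgg were not well above background on any of the 8 water arrays and were well above it on all 6 DSS arrays. Both were thus tested only through their DSS arrays, so a rise was built into their being tested. Fgb, the β chain, had levels from −7.93 to −7.26 in Flox and from −7.80 to −6.46 in GR iKO on water. On DSS it reached 0.53, −0.06 and 1.19 in Flox and 0.47, −2.30 and 0.09 in GR iKO, where replicate 3 was the lowest of the 6. Fgb was at least 94.5-fold higher on DSS in Flox (fitted change 8.04 ± 0.57) and at least 38.7-fold higher in GR iKO (6.6 ± 0.57, limma adjusted p = 9.71e-06). Fgg, the γ chain, reached −0.36, −0.84 and 0.43 on DSS in Flox and −0.65, −2.75 and −0.50 in GR iKO, again with replicate 3 lowest. Fgg was at least 53.9-fold higher on DSS in Flox (fitted change 7.81 ± 0.56) and at least 23.5-fold higher in GR iKO (6.44 ± 0.56, limma adjusted p = 1.03e-05).

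Fga, the α chain, had smaller fitted changes than the other chains, on a probe that was dim on DSS as well. It gave 16.98 to 21.78 intensity units on the Flox and 5.975 to 15.95 on the GR iKO DSS arrays. Whether the Fga transcript rose less than those of the other chains was not tested. On water 1 of 4 Flox arrays and 0 of 4 GR iKO arrays were well above background. On DSS its levels were −4.66, −5.21 and −3.59 in Flox, all well above background, and −5.48, −6.55 and −5.16 in GR iKO, where replicate 3 was not. The highest Flox water array, at −6.04, lay below every Flox DSS array. The fitted change was 2.79 ± 0.59 in Flox and 2.08 ± 0.59 in GR iKO (limma adjusted p = 0.0144), but the bound for GR iKO was only 1.09-fold. Fga too was tested only through its DSS arrays, so a rise was built into its being tested. The Fga call was lost with normexp (adjusted p = 0.0679), under spike-in scaling (0.156) and without GR iKO DSS replicate 4 (0.0848), over a range of 0.00103 to 0.0848 with single arrays left out. Without GR iKO DSS replicate 3 the changes of Fgb and Fgg in GR iKO were 7.46 and 7.17.

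The serum amyloid A genes encode small apolipoproteins that bind retinol and bacteria and are made by the colonic epithelium in the presence of microbes, and Saa3 also by macrophages and stromal cells. Saa1 and Saa2 are neighbours on chromosome 7 read in opposite directions. Their upstream sequences are shown because the pair did not separate by treatment and these stretches are nearly alike. No transcript or probe sequence was compared. Each of their probes may also bind the transcript of the other, and which of them a probe bound was not tested.
Saa1, minus strand, chr7:46742981-46743230: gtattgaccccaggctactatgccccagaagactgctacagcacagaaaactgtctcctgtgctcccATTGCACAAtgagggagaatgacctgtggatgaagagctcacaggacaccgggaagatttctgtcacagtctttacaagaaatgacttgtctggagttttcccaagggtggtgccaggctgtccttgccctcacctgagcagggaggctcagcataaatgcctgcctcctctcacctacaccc
Saa2, plus strand, chr7:46751583-46751832: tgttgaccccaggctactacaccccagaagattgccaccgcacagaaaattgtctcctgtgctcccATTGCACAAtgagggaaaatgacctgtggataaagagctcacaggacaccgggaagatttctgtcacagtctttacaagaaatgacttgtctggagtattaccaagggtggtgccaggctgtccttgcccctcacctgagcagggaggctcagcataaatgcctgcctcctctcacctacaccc
These were 94.8% identical (238 of 251 aligned positions), against 48.2% and 48% for Saa1 and Saa2 with the same stretch of Saa3. Both held 1 match to TTNNGNAAT, read on the reverse strand and shown in capitals, and none of the other motifs.

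Saa1 and Saa2 gave signals of 201200 to 267000 and 172100 to 231300 intensity units on the Flox water arrays, with no saturated spot. On the Flox DSS arrays they gave 95680 to 130700 and 104900 to 123700 units before scaling. Neither had a called change with DSS in GR iKO, and the Flox change was not tested. Saa1 levels were 8.20, 7.65, 8.20 and 8.42 in Flox on water and 7.80, 7.6 and 8.76 on DSS, and 7.94, 8.14, 8.26 and 8.33 in GR iKO on water and 7.76, 8.94 and 8.04 on DSS. All 4 groups overlapped, and the DSS arrays spread further to both sides. The change was −0.07 ± 0.32 in Flox and 0.08 ± 0.32 in GR iKO (95% interval −0.63 to 0.78, limma adjusted p = 0.869). A second Saa1 probe gave −0.30 ± 0.35 in Flox and 0.01 ± 0.35 in GR iKO. Saa2 changed by 0.18 ± 0.31 in Flox and by 0.06 ± 0.31 in GR iKO (interval −0.62 to 0.74, adjusted p = 0.896). Both GR iKO values turned negative under spike-in scaling, with the deposited value table and with slide or replicate number as a block. Over the alternatives the Flox change went as low as −2.46 for Saa1 and −2.21 for Saa2, so the lack of a change depends on the scaling.

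Saa3 was the one of the 3 serum amyloid A genes called with DSS in GR iKO. Its levels were 5.63, 5.08, 5.72 and 6.12 in Flox on water and 5.38, 5.14 and 5.85 on DSS. In GR iKO they were 5.33, 5.64, 5.60 and 6.07 on water and 7.48, 6.75 and 6.44 on DSS. The 3 GR iKO DSS arrays were the 3 highest of all 14, and the other groups overlapped. Before scaling, GR iKO DSS replicates 1 and 3 were still the highest, at 127500 and 60000 units. Replicate 4, at 42690 units, lay below Flox water replicates 1 and 4 (45120 and 51030) and GR iKO water replicate 4 (49860). Saa3 rose in GR iKO by 1.23 ± 0.36, or 2.34-fold (limma adjusted p = 0.0176), and in Flox the change was −0.18 ± 0.36. The GR iKO call was lost under spike-in scaling (change 0.26, adjusted p = 0.724) and without GR iKO DSS replicate 1, the highest array (0.93, adjusted p = 0.0917), against 0.00914 to 0.0917 with single arrays left out. Within slides the GR iKO change was 1.14, 2.15 and 0.36.

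Orm1 encodes orosomucoid 1, a plasma glycoprotein that binds basic drugs and steroids, and has the close paralogues Orm2 and Orm3 beside it on chromosome 4. It was dim and uneven on water, with levels from −6.17 to −4.09 in Flox and from −8.07 to −3.99 in GR iKO. On DSS it was −2.63, −2.72 and −2.48 in Flox and −1.86, −4.46 and −2.97 in GR iKO. The Flox groups did not overlap, whereas GR iKO DSS replicate 3 lay below 2 of the GR iKO water arrays. The change was 2.70 ± 1.25 in Flox and 2.39 ± 1.25 in GR iKO (95% interval −0.33 to 5.11, limma adjusted p = 0.152), and the GR iKO value passed the threshold with normexp (1.11, adjusted p = 0.0183) and with a spread shared by all arrays (adjusted p = 0.0432).

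**Figure D2:**
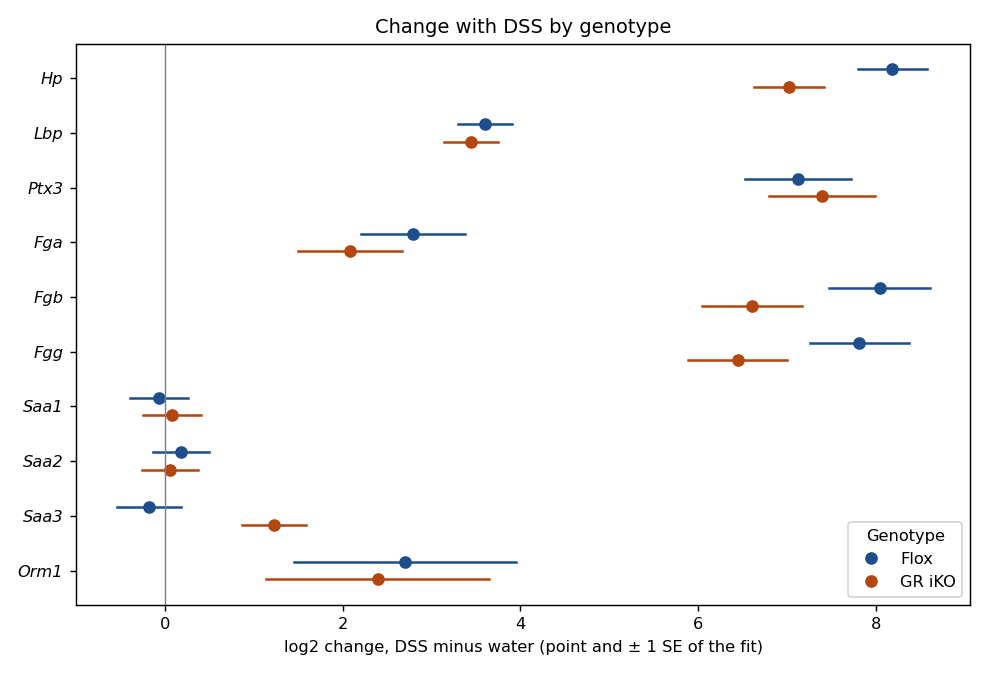
Fitted change from water to DSS in log2 units for the 10 genes, in Flox (blue) and GR iKO (orange), with bars of 1 SE on either side. Hp, Ptx3, Fgb and Fgg lie between 6.44 and 8.19 in both genotypes, Lbp near 3.5, Fga and Orm1 between 2.08 and 2.79, Saa1 and Saa2 within 1 SE of 0, and Saa3 at −0.18 in Flox and 1.23 in GR iKO.

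In GR iKO, 7 of the 10 genes were called higher on DSS and 0 lower, where 19.1% of all probes tested were called higher and 19.8% lower. The median change of the 10 was 2.92, against 0.000259 over 15540 tested genes with a symbol. All 12 probes passed the filter on dim probes, well above background on at least 3 arrays. Of the 7, Ptx3, Fga, Fgb and Fgg passed it through their DSS arrays, so that a rise was built into their being tested. Of the 5 genes well above background on all 14 arrays (Hp, Lbp, Saa1, Saa2 and Saa3), 3 were called higher, and restricting the test to such probes gave the same 3. Each of the 7 changed in the same direction within all 3 slides that held a GR iKO water and a GR iKO DSS array. The calls came from these same arrays, so this describes the values and adds no test. The share of all called probes that did the same was not counted. Leaving out single arrays gave 6 or 7 genes called. In Flox, where the genes were chosen, 8 of 10 had a positive change, with a median of 3.2, and Hp, Lbp, Ptx3, Fga, Fgb, Fgg and Orm1 had DSS arrays all above the water arrays, as did 25.8% of all probes.

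On water, none of the 10 genes was called between GR iKO and Flox (limma), where 0.0237% of all probes were called, and the groups overlapped for all 10, where 2.26% of probes did not overlap. Hp came nearest, higher by 0.74 ± 0.24 in GR iKO with an unadjusted p of 0.00857 and an adjusted p of 1. Flox replicate 1 overlapped the GR iKO arrays, and within each of the 4 slides Hp was higher in GR iKO, by 0.40 to 1.22. The other 9 differences lay between −0.53 and 0.39.

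On DSS, none of the 10 was called between the genotypes either (limma), and 0.0203% of all probes were. The Flox DSS arrays in this comparison are those in view when the genes were chosen. Saa3 was higher in GR iKO by 1.43 ± 0.46, a 2.70-fold difference (95% interval 0.43 to 2.44), with an unadjusted p of 0.00893 and a limma adjusted p of 0.146. It was the only one of the 10 whose groups did not overlap, which 22.8% of all probes showed in either direction and 11.2% with GR iKO higher. The difference was 1.36 and 0.59 within the 2 slides that held both genotypes on DSS. With a spread shared by all 14 arrays, which understates the error on DSS, Saa3 was called (adjusted p = 0.0154) together with 13.2% of all probes. Fga, Fgb and Fgg were lower in GR iKO by log2 differences of −1.24 ± 0.75, −1.13 ± 0.72 and −1.04 ± 0.71, with adjusted p from 0.427 to 0.493 and overlapping groups. Without GR iKO DSS replicate 3, the differences of Fgb and Fgg were −0.27 and −0.32. Under spike-in scaling they were 0.11 and 0.20. Hp differed by −0.42 ± 0.50 (interval −1.51 to 0.67, adjusted p = 0.723), and this too turned sign under spike-in scaling, to 0.81.

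The change with DSS was compared directly between the genotypes by the interaction term, which shares the same Flox arrays. No probe of the table was called in limma, although 4389 of 29523 had an unadjusted p under 0.05. Of the 10 genes, Saa3 had a difference of changes, GR iKO minus Flox, of 1.41 ± 0.51 (unadjusted p = 0.0168, adjusted p = 0.234). Hp had −1.16 ± 0.55 (adjusted p = 0.352), Fgb −1.44 ± 0.80 (0.43) and Fgg −1.37 ± 0.79 (0.447). The intervals, 0.30 to 2.52 for Saa3, −2.37 to 0.05 for Hp, −3.18 to 0.30 for Fgb and −3.08 to 0.34 for Fgg, leave room for differences of several-fold. Under spike-in scaling the Saa3 term was 2.84 and was called (adjusted p = 0.0417), as were 27.2% of all probes.

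Across the 6 DSS arrays the 3 fibrinogen chains ran in parallel. Fgb and Fgg correlated at 0.987, Fga and Fgg at 0.931 and Fga and Fgb at 0.886, as a description over 6 arrays of both genotypes that share their scaling. Each had its highest level on Flox replicate 4 and its lowest on GR iKO replicate 3. Flox replicate 4 had the lowest 75th percentile of signal, 262 intensity units, so a given intensity has a higher level there. Before scaling, Fga was still highest there, but Fgb and Fgg were highest on GR iKO replicate 1. They had 989.6 and 455.4 units on that array, against 598 and 352.5 on Flox replicate 4. All 3 chains were lowest on GR iKO replicate 3 before scaling too. Orm1 was also lowest on GR iKO replicate 3, with a correlation of 0.901 with Fgb and 0.824 with Fgg, and its highest level was on GR iKO replicate 1. Hp, Ptx3 and Lbp had neither extreme in common with the chains, and Lbp was highest on GR iKO replicate 3. Of 17 genes in the lists of negative acute-phase proteins and hepatocyte markers, 8 shared both extremes with the fibrinogen chains, 13 were highest on Flox replicate 4, and 2, Tat and Cyp2e1, were highest on GR iKO replicate 3. These are scaled levels. The share of all probes that was highest on Flox replicate 4, lowest on GR iKO replicate 3 or both was not counted. The counts can therefore not be read as particular to these genes. Alb, which encodes serum albumin, had levels of 1.99, 1.67 and 3.10 on the Flox DSS arrays and 1.20, −6.47 and 1.82 on the GR iKO DSS arrays, against −2.75 to −1.90 on the 8 water arrays. GR iKO DSS replicate 3 was thus the one array of 14 on which Alb was not well above background. Ahsg (fetuin A) and Apoa1 (apolipoprotein A-I) were among the 8, lowest there, at −2.25 and −5.17, and highest on Flox replicate 4, at 1.65 and −1.5. Ttr, which encodes the carrier of thyroxine and retinol-binding protein and is in both lists, was well above background on all 8 water arrays and on none of the 6 DSS arrays. Which cells gave the Ttr signal on water was not tested. The summed level of the 10 hepatocyte markers was 3.97 on GR iKO replicate 3, the second highest of the 6 DSS arrays. This sum adds levels before the log is taken, and Tat alone was at 3.73 there. It therefore mostly reflects Tat on that array and says little about the other markers. The part of RNA from other cells in the fibrinogen signal was not tested.

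**Figure D3:**
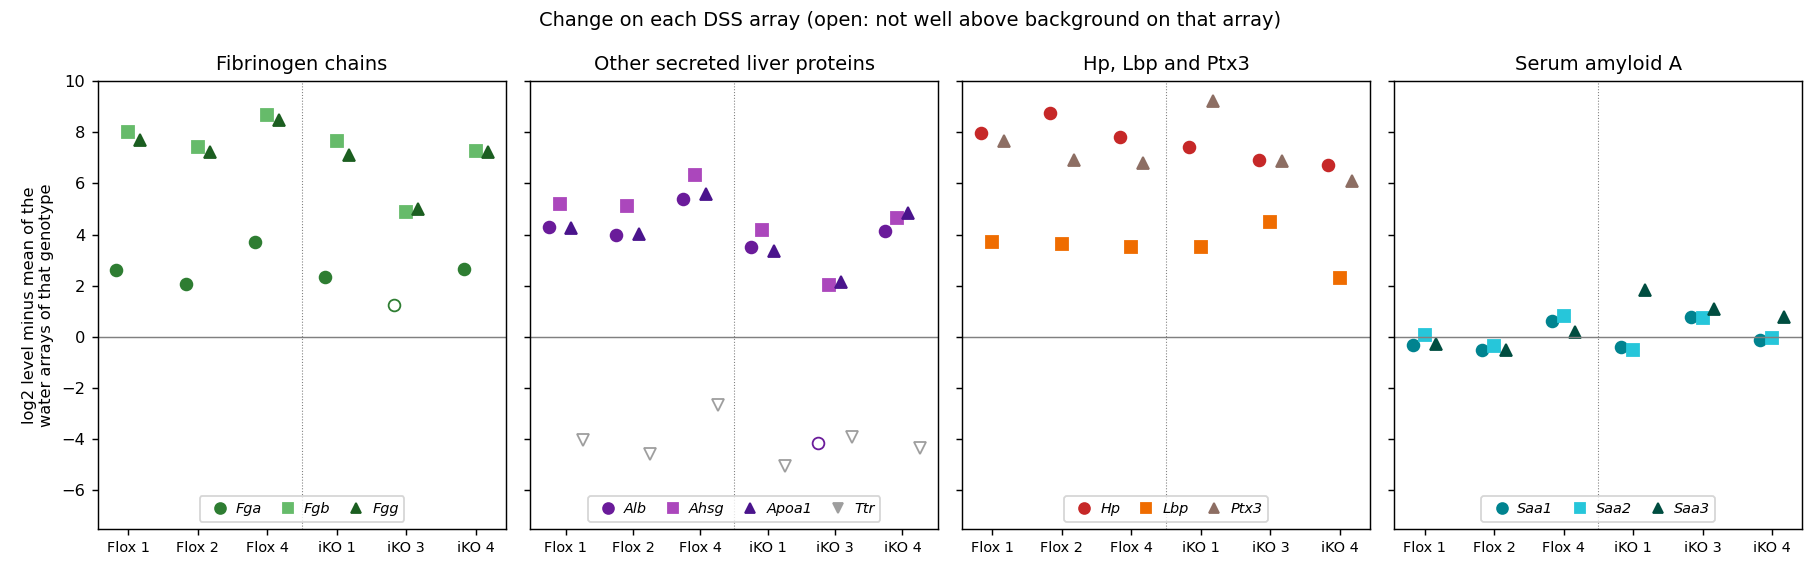
Level on each of the 6 DSS arrays minus the mean of the 4 water arrays of its genotype, in log2 units, for the fibrinogen chains, 4 other secreted liver proteins, Hp with Lbp and Ptx3, and the serum amyloid A genes (labels give genotype and replicate; open symbols were not well above background on that array). The fibrinogen chains, Alb, Ahsg and Apoa1 are lowest on GR iKO replicate 3, Ttr is down on every array, and Saa3 is above 0 on all 3 GR iKO arrays.

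The other genes of the acute-phase system were counted by lists, whose calls are read against 19.1% of all probes called higher and 19.8% lower in GR iKO, and 21.8% higher and 25.4% lower in Flox. Some genes of the lists passed the filter on dim probes only through their DSS arrays, with fewer than 3 water arrays well above background, so that a rise was built into their being tested: 3 of the 12 other positive acute-phase proteins that rose in GR iKO, 1 of the 4 negative, 3 of the 8 inducers, 2 of the 17 coagulation genes, 3 of the 18 receptors and ligands, and 3 of the 10 neutrophil markers below. Orm3, Apoa1, Il6, Il1a, Il22, Serpinb2 and Fpr2 are such genes. Of the other positive acute-phase proteins, those that increase in inflammation, 12 of 15 tested rose in GR iKO and 0 fell, with a median change of 3.51, and 11 rose in Flox. Among the list, the largest rises in GR iKO were those of Lcn2, which encodes the siderophore-binding lipocalin 2 (6.53 ± 0.62, limma adjusted p = 1.84e-05), Serpina3n, a protease inhibitor (5.31 ± 0.42), Orm3 (at least 12.5-fold, fitted change 5.29 ± 0.72) and Serpina3m (4.4 ± 0.25). Hamp, the iron regulator hepcidin (0.38 ± 1.27, adjusted p = 0.838), and Apcs, serum amyloid P (0.58 ± 0.76, adjusted p = 0.579), did not pass. Orm3 lies beside Orm1, and whether a probe for 1 of these paralogues also bound the other was not tested.

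Of the 10 negative acute-phase proteins, which the inflamed liver makes less of, 4 rose and 2 fell in GR iKO, with a median change of 1.35, and 8 rose and 1 fell in Flox, with a median of 2.79. Ttr fell in both, to not well above background, at least 16.1-fold lower in GR iKO and at least 10.02-fold lower in Flox (fitted changes −4.44 ± 0.34 and −3.77 ± 0.34). Rbp4, its retinol-binding partner, named after its values were seen, was the other that fell in GR iKO (−1.84 ± 0.44, limma adjusted p = 0.0062). Ahsg rose by 3.62 ± 0.47 in GR iKO and by 5.54 ± 0.47 in Flox, Apoa1 was at least 3.98-fold and at least 11.6-fold higher, and Fetub, fetuin B, rose by 2.29 ± 0.32 and 1.58 ± 0.32. Alb rose by 4.55 ± 1.24 in Flox (adjusted p = 0.00959), while in GR iKO its change was 1.17 ± 1.24 (adjusted p = 0.489), with replicate 3 far below the others. Trf, transferrin, changed by 0.00 ± 0.30 in GR iKO (adjusted p = 0.995) and rose by 1.00 ± 0.30 in Flox (adjusted p = 0.017).

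The cytokines that induce acute-phase genes in hepatocytes rose too. Of 9 tested, 8 rose and 1 fell in GR iKO (median 5.64), and 6 rose and 1 fell in Flox (median 2.8). Il6 went from not well above background on all 8 water arrays to levels between −0.44 and 0.02 on the Flox and between 0.62 and 1.99 on the GR iKO DSS arrays, at least 57.8-fold and at least 134.1-fold (limma adjusted p = 1.33e-07 and 3.66e-08). In GR iKO, Il22 was at least 51.2-fold higher (adjusted p = 0.00215), Il1b rose by 7.76 ± 0.46 and Il1a was at least 23.3-fold higher. The gene that fell was Ctf1, cardiotrophin 1, named after its values were seen (−1.55 ± 0.16, limma adjusted p = 3.2e-05). Il11, named after its values were seen, was the one gene of the 6 lists called between the genotypes on DSS, higher in GR iKO by 2.35 ± 0.30 (limma adjusted p = 0.0443). The Il11 difference was 2.10 to 3.58 under 24 alternatives and was called in 11 of them, with adjusted p from 0.00355 to 0.333. Among the 13 without the call were spike-in scaling (0.0635), the slide block (0.0977), the replicate block (0.0844), the compared groups alone (0.226) and 9 of the 14 omissions of 1 array, with 0.333 without Flox DSS replicate 2.

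Of the receptors and signal transducers for these cytokines, 12 of 18 rose in GR iKO and 0 fell, with a median of 1.18, and 10 rose in Flox. Socs3, the feedback inhibitor induced by STAT3, rose by 5.22 ± 0.23 in GR iKO and 4.53 ± 0.23 in Flox. Osmr, the oncostatin M receptor, rose by 3.38 ± 0.20, and the C/EBP factors Cebpb and Cebpd by 3.29 ± 0.20 and 2.53 ± 0.31. Jak1 (0.14 ± 0.12, limma adjusted p = 0.382) and Il22ra1 (0.28 ± 0.52, adjusted p = 0.696) did not pass.

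Of the coagulation and fibrinolysis partners of fibrinogen, 17 of 21 rose in GR iKO and 0 fell, with a median of 1.72, and 13 rose in Flox. F10, which encodes coagulation factor X, rose by 7.5 ± 0.53 in GR iKO and 4.57 ± 0.53 in Flox. Serpinb2, a serine protease inhibitor that acts on urokinase, was at least 7.99-fold higher in GR iKO (limma adjusted p = 0.000441). In Flox no array was well above background for Serpinb2, and its fitted change of 1.16 ± 0.74 was not called (limma adjusted p = 0.219). Plaur, the urokinase receptor, rose by 4.06 ± 0.41 in GR iKO and by 2.43 ± 0.41 in Flox. Thbd (0.10 ± 0.28) and Vwf (0.41 ± 0.34), thrombomodulin and von Willebrand factor of the endothelium, did not pass in GR iKO, with adjusted p of 0.809 and 0.381. In Flox they rose by 0.77 ± 0.28 and 1.10 ± 0.34 (adjusted p = 0.0388 and 0.0197), and the difference between the genotypes was not called for either.

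Of 20 genes for receptors and ligands of the 10 proteins, 18 rose in GR iKO and 0 fell, with a median of 2.15, and 14 rose in Flox. Fpr2, a receptor for serum amyloid A, rose by 6.65 ± 0.59 and Fpr1 by 6.29 ± 0.87, Fcgr1, an Fc receptor that also binds pentraxins, by 3.50 ± 0.39, and Hmox1, the haem oxygenase that breaks down haem after haptoglobin uptake, by 3.13 ± 0.23. Scarb1 (0.13 ± 0.12) and Ly96 (0.24 ± 0.20), a receptor for lipoproteins and the TLR4 partner to which Lbp delivers its cargo, did not pass, with limma adjusted p of 0.417 and 0.373.

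**Figure D4:**
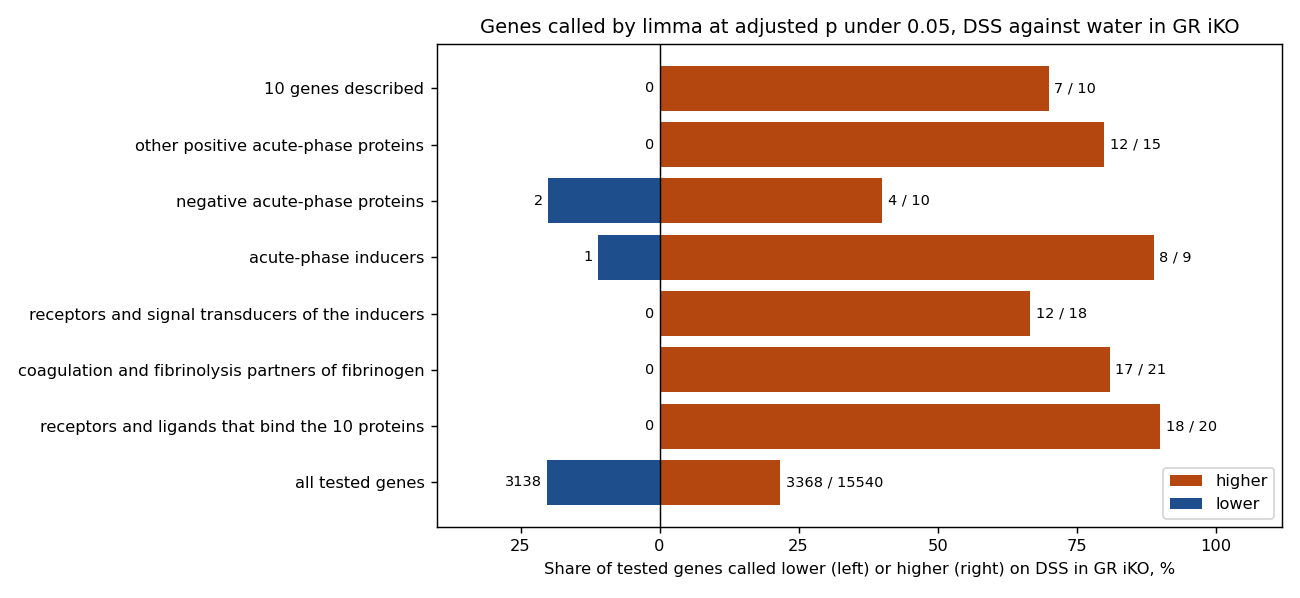
Share of tested genes called higher (right) or lower (left) on DSS in GR iKO (limma, adjusted p under 0.05) for the 10 genes described, 6 lists of related genes and all 15540 tested genes; numbers at the bars are genes called and, on the right, genes tested. The negative acute-phase proteins (4 higher, 2 lower) and the inducers (8 higher, 1 lower) are the lists with genes called lower.

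Markers of several cell types moved with the DSS change. All 10 neutrophil genes rose in GR iKO and 8 of 10 in Flox (limma). Their summed log2 level lay between −2.09 and −0.73 on Flox water arrays and between 4.62 and 6.08 on DSS. In GR iKO it lay between −1.87 and −0.34 on water and between 6.32 and 8.17 on DSS. The genotypes did not overlap on DSS, which 22.8% of all probes showed in either direction and 11.2% with GR iKO higher. The most intense gene of the list was S100a9, which encodes a subunit of calprotectin. Of 10 macrophage genes, 8 rose in GR iKO and 7 in Flox, and of 10 fibroblast genes 8 and 10. The summed macrophage level was 4.87 to 5.89 on Flox DSS and 5.21 to 5.91 on GR iKO DSS arrays, and the ranges overlapped. The sum over 10 hepatocyte genes was 2.04 to 2.38 on Flox water and 3.09 to 4.23 on Flox DSS arrays. In GR iKO it was 2.29 to 2.54 and 3.49 to 3.97, with 3 genes called higher and 2 lower there and 6 higher and 2 lower in Flox. Tat, tyrosine aminotransferase, was its most intense gene and was well above background on all 14 arrays, and 3 of the 10 are also among the negative acute-phase proteins.

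In GR iKO, 3 of 10 endothelial genes rose, 1 of 8 smooth muscle genes rose, 4 of 9 adipocyte genes fell and 0 of 6 mesothelial genes were called. In Flox, 5 endothelial, 7 smooth muscle and 2 adipocyte genes rose, and 1 mesothelial gene rose and 1 fell, of the same numbers of genes and where 21.8% of all probes were called higher and 25.4% lower. All 10 epithelial genes were well above background on every array, with a summed level of 10.4 to 10.6 on water in both genotypes, 10.1 to 10.8 on Flox DSS and 10.4 to 10.98 on GR iKO DSS arrays. In GR iKO 1 of them rose, and in Flox 1 rose and 3 fell. The part of these cells in the changes of the 10 genes was not tested, and in whole tissue more cells of a type and more RNA per cell cannot be told apart.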

How the data were processed

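Colon RNA was hybridised to 14 Agilent one-colour arrays on 4 slides, 1 array a sample. Per the file headers, the authors' scanner files came from Agilent Feature Extraction 12.0.0.7, and the deposited intensity used here is its background-corrected processed signal, which is not scaled between arrays. The deposited log2 value table (the submitters' processing notes name Partek 6.6) has equal quantiles on every array with a median of 6.05, and correlated at 0.9988 or above with the processed signal; its exact normalization is not given in the sources used here, and it served as an alternative. The deposited scanner flags (other values, 0 or 1) marked probes well above background and outlier spots.

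Control and outlier spots were left out, spots of a probe averaged, and log2 intensity taken minus the log2 75th percentile of each array. Probes well above background on at least 3 arrays (29523 of 41174) were fitted with limma 3.58.1 in R 4.3.3 (lmFit on group means, array weights 1.69 for water and 0.497 for DSS, eBayes), with Benjamini-Hochberg adjustment over all of them; called means adjusted p under 0.05. Gene symbols came from the RefSeq accession of the probe (28223 probes). Each gene is represented by its probe with the highest mean signal. The number of arrays limits the precision. The script was tested on simulated data.

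The 10 genes and all lists were chosen with earlier results of these data known. From each list of related genes at most 4 called genes with the largest change in GR iKO and at most 2 uncalled with the smallest are named; from marker lists, the most intense. A gene that this rule names in the coagulation list is not reported here. The alternatives were normexp (offset 50, on median spot and background signals, since the files used here have no mean signal column), quantile normalization, spike-in scaling, the value table, other filters, 1 shared spread, the compared groups alone, slide or replicate block, and each array left out.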

Additional observations from a re-analysis of the deposited data

Results flagged for a closer look

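Among 20 groups of 4 water arrays tested for a value far from the rest, 2 had one, where chance gives about 1 in 20. Lbp on Flox water replicate 4 was at −2.58, against −2.35 to −2.32 on the other 3 arrays, a gap of 0.877 of the range of the group. Saa2 on Flox water replicate 2 was at 7.42, against 7.98 to 8.05 on the other 3, a gap of 0.879 of the range.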

How the results depend on the processing

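In GR iKO the calls of Hp, Lbp, Ptx3, Fgb and Fgg held under every alternative in which they were tested, while Fga lost its call under 3 of 23 and Saa3 under 2 of 24. The size of the changes depended on the processing. The lowest fitted log2 change over the alternatives was 4.135 in Flox and 3.232 in GR iKO for Fgb. For Fgg it was 3.509 and 2.594, and for Ptx3 in GR iKO 4.483. These lie below the fold bounds given above, which hold for the main processing only. The number of the 10 genes called higher was 7 in the main fit and 3 to 8 over the alternatives. It was 3 with a filter on all 14 arrays, which leaves 5 of them tested, and 6 to 7 with single arrays left out. Under spike-in scaling neither Fga nor Saa3 was called, and with a shared spread Orm1 was called as well. In every setting 0 were called lower. The median Flox change of 3.2 was 2.28 with normexp, 0.806 under spike-in scaling and 0.184 with the filter on all 14 arrays, and 3.12 to 3.42 with single arrays left out. Between genotypes on DSS 1 of the 10 was called with a shared spread and 0 with any array left out, and in the interaction 1 under spike-in scaling and 0 with any array left out.

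The uncalled Saa1 change in GR iKO turned to −0.0204 with normexp, −0.0444 with quantile normalization, −0.89 under spike-in scaling, −0.0406 with the value table, −0.0095 with the slide block and −0.0126 with the replicate block, and spanned −0.27 to 0.32 with single arrays left out. That of Saa2 turned to −0.91 under spike-in scaling, −0.0012 with the value table, −0.0222 with the slide block and −0.0255 with the replicate block, and spanned −0.28 to 0.35. Under spike-in scaling the genotype difference on DSS turned to 0.81 for Hp, 0.11 for Fgb and 0.20 for Fgg, and the interaction to 0.26 for Hp and 0.0546 for Fgg; that scaling moved the median of all probes by 1.26 and 1.45 in these comparisons. The cause was not tested.

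Nr3c1 on water was −0.80 with the slide block too. There an exact test that flips the signs of the 4 within-slide differences gave p = 0.125, the smallest that 4 differences allow. The Nr3c1 difference on water was −0.86 to −0.74 with single arrays left out. On DSS the Nr3c1 difference turned to 0.40 under spike-in scaling (exact permutation p = 0.6) and was −0.93 to −0.74 with single arrays left out. Over all probes, 13949 were called with DSS in Flox and 25363 under spike-in scaling. Between genotypes on DSS 6 were called, against 19 with quantile normalization, 20 with the value table, 10 with no filter, 14 with the filter on all arrays, 3903 with a shared spread and 0 under spike-in scaling, the slide block, the replicate block or the compared groups alone; with single arrays left out it was 0 to 11, except 826 without Flox DSS replicate 4 and 732 without GR iKO DSS replicate 3. On water 7 were called, against 4 with normexp, 3 under spike-in scaling, 4 with the filter on all arrays, 1 with a shared spread and 3 with the compared groups alone. In the interaction 0 were called, against 8028 under spike-in scaling, 33 with a shared spread, 6 with normexp and 3 with each of quantile normalization, the value table and the filter on all arrays, 49 without GR iKO DSS replicate 3 and 2 without Flox DSS replicate 4. Replicate numbers did not pair the samples: deviations of same-numbered arrays correlated at −0.08 to 0.31 on water and at −0.03 and 0.18 on DSS. With the replicate block 7 genes were called higher in GR iKO, the Flox median was 3.24 and 0 genes were called between genotypes on DSS. Probes at background give bounds only, which limits Ptx3, Fga, Fgb and Fgg on water.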
